A study of Mus musculus with 17 samples.

Results

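The 48 genes described here act in G2 phase and mitosis. They were taken by symbol from a named list, and all 48 were found in both count tables, out of 57638 gene IDs in either table. The list holds 9 cyclins, kinases and the phosphatase Cdc25c, 2 parts of the ubiquitin machinery of anaphase, 4 spindle checkpoint genes and 4 members of the chromosomal passenger complex. It also holds 6 genes of the centromere and kinetochore, 8 of the spindle and its motors, 5 of cytokinesis, 6 of chromosome structure, and Mki67, Foxm1, Cdca2 and Cdca3. All 48 passed the low-count filter in both tables and were tested in every comparison.

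The material was mouse lacrimal gland, the gland that makes the watery part of tears, and epithelial organoids grown from it in basement membrane extract, profiled by RNA-seq of polyadenylated RNA. The 17 libraries form 7 groups. The uncloned organoids, labelled wild type and numbered as lines 6, 7 and 8, were sampled in differentiation medium (DM, n = 3) and in expansion medium (EM, n = 3), with gland tissue under the same numbers (n = 3). The clones were 2 labelled Pax6-KO and 2 labelled wild type (WT), each sampled in DM and in EM. Pax6 is a transcription factor of eye and lacrimal gland development. EM cultures had 7 days in EM and DM cultures 2 days in EM and then 5 in DM, per the growth protocol. For the clones the series text gives 7 days of exposure to each medium, so their time in DM is uncertain. Each genotype rests on 2 clones. The labels do not say whether lines and clones came from separate animals, so p-values measure only the spread between these samples, which may be technical.

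Cells entering mitosis switch on a shared set of genes late in the cell cycle. Cyclin B with the kinase Cdk1 drives entry, the kinetochore and checkpoint proteins hold anaphase back until chromosomes are attached, and the anaphase-promoting complex with its activator Cdc20 and the conjugating enzyme Ube2c then destroys cyclin B and securin. In resting cells the DREAM complex, with the pocket proteins p107 and p130, keeps many of these genes off through a promoter sequence called the cell cycle homology region (CHR). In dividing cells B-Myb and Foxm1 bound to the MuvB core, together with NF-Y at CCAAT boxes, activate them. The summed level of these transcripts in a tissue is widely used as a reading of how many cells divide. In bulk RNA, fewer cells of a type and less RNA per cell cannot be told apart.

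Promoters from RefSeq (GRCm38.p6, 250 bases before to 50 after a gene start) matched 37 of the 48 genes. The CHR letters TTTGAA, read on either strand, were present in 14 of these 37 promoters (37.8%), against 16.9% of 17492 protein-coding genes. CCAAT, on either strand, was present in 28 of 37 (75.7%) against 39.5%, and 2 or more copies in 51.4% against 13.0%. Both together were present in 13 of 37 (35.1%) against 6.13%. A variant of the CHR letters, TTTAAA, was present in 6 of 37 (16.2%) against 12.9%. Ccnb1 has 1 copy of this variant, which is not capitalised below. Another 62 mitosis genes had TTTGAA in 37.0% of 54 matched promoters, and 48 genes of G1/S and replication in 13.2% of 38. The promoters below are shown because they carry these letters close to the start, or, for Ccnb1 and Spc25, because they hold CCAAT and no TTTGAA in the whole window searched. Each line gives the 120 bases before the annotated start on the gene's own strand, with TTTGAA (or TTCAAA, its reverse complement) and CCAAT (or ATTGG) in capitals.
Cdk1 (chr10:69352913-69353032, minus strand): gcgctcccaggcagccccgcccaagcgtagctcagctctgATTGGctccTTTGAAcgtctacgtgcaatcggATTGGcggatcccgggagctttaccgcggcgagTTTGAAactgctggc
Top2a (chr11:99024190-99024309, minus strand): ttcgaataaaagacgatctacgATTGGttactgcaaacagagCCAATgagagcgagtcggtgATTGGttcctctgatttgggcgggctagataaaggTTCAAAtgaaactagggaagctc
Ube2c (chr2:164769809-164769928, plus strand): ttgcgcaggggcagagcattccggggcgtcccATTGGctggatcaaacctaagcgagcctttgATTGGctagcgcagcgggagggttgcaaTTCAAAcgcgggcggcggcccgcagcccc
Cdc20 (chr4:118437344-118437463, minus strand): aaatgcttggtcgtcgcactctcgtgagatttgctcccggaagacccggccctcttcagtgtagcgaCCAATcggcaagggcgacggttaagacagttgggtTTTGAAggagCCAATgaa
Hmgb2 (chr8:57511723-57511842, plus strand): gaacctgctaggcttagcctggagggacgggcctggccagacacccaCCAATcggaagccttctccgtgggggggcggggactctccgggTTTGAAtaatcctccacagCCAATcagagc
Kif11 (chr19:37376262-37376381, plus strand): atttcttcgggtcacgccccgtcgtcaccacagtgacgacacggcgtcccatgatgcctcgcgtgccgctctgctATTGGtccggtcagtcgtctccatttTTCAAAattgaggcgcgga
Ccnb1 (chr13:100786487-100786606, minus strand): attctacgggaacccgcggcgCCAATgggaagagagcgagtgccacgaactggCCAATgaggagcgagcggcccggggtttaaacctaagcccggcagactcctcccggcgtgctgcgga
Spc25 (chr2:69206214-69206333, minus strand): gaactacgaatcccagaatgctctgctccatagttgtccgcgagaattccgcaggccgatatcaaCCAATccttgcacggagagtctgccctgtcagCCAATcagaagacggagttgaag
A match is only a match of letters, and none of these files measures binding. As a share of the EM level, the median in DM of the 14 genes with TTTGAA and of the 23 without was 41.0% and 42.1% in line 6, 57.7% and 58.3% in line 7 and 98.8% and 104% in line 8. It was 23.4% and 24.9% in KO clone 1, 23.9% and 26.1% in KO clone 2, 46.2% and 55.8% in WT clone 1 and 21.8% and 22.3% in WT clone 2. The genes with TTTGAA had the lower median in all 7 cultures, a description with no test. The 23 without TTTGAA include genes with the variant TTTAAA, such as Ccnb1 and Plk1.

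Total counts ran from 12801473 to 19207469 in the uncloned and gland libraries and from 18282059 to 22500534 in the clones. The 48 genes together held 0.0374% to 0.579% of the counts in the organoid libraries and 0.00783% to 0.0259% in the glands. In gland 7, 17 of the 48 genes had under 10 counts, as did 2 in gland 6. No organoid library had a member under 22 counts. Levels are given as CPM, the counts of a gene over the library's effective size after TMM scaling within each table, and are not compared across the tables. Pax6, the gene named in the clone labels, stood at 135 and 309 CPM in KO clones 1 and 2 in DM and at 172 and 272 CPM in EM. WT clones 1 and 2 had 219 and 280 CPM in DM and 245 and 276 CPM in EM, so the transcript level does not separate the labels, and a count per gene does not show an edit. Of 9 epithelial markers, all had counts in every group except Cldn3 in KO clones in EM. The fibroblast marker Col1a2, the endothelial Cldn5 and Emcn, the macrophage C1qa and C1qb and the leukocyte marker Ptprc were at 0 in all 6 organoid groups. Cldn5 was at most 0.771 CPM in the glands too, so its 0 says little. Other markers on these lists had counts in organoids. Cd68, a lysosomal protein abundant in macrophages, had 14.7 to 19.5 CPM in uncloned DM and 13.9 to 22.8 CPM in EM, against 4.79 to 16.6 CPM in gland. In the table of the clones it had 31.0 to 63.3 CPM in KO and 96.6 to 191 CPM in WT clones. The integrin Itgam had 15.4 to 29.1 CPM in uncloned DM and 4.01 to 12.3 CPM in EM, against 8.35 to 9.66 CPM in gland. The plasma cell marker Sdc1, a syndecan that epithelia also make, had 489 to 831 CPM in uncloned DM and 389 to 482 CPM in EM, against 25.2 to 29.5 CPM in gland, and 653 to 1250 CPM in the table of the clones.

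Some members overlap exons of another gene on the opposite strand: Ccna2, Cdc25c, Plk1, Cdc20, Ube2c, Cdca8, Kif4, Nusap1, Kif20a, Prc1 and Ncapg. Top2a and Foxm1 overlap another annotated gene on the same strand, and Ccnb1, Ccnb2 and Kif4 have named pseudogene copies. The kit kept strand, but whether counting used it is not given in the sources used here, so reads of these overlaps may be shared.

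**Figure D1:**
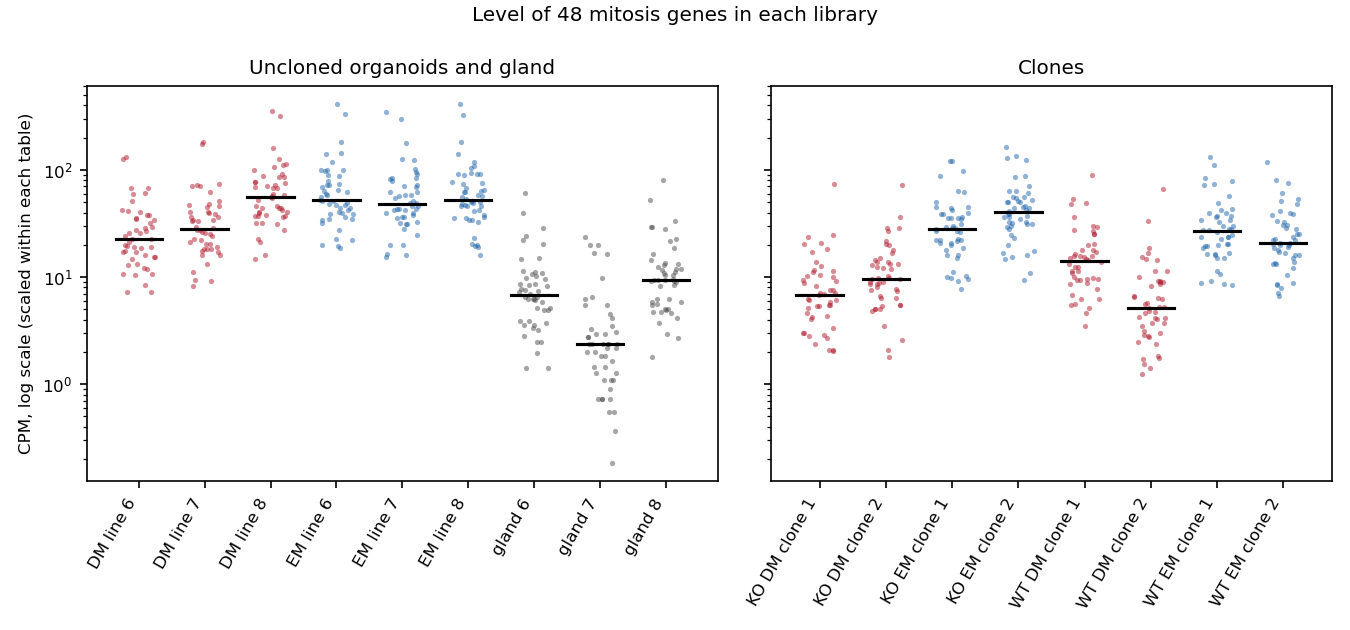
Level of each of the 48 genes (points, CPM on a log axis) in each library, with the median as a bar; red is DM, blue EM and grey gland. The median is 55.7 CPM in DM line 8, beside 22.6 and 28.2 CPM in DM lines 6 and 7, while the EM lines lie between 47.7 and 52.3 CPM and the glands between 2.37 and 9.39 CPM.

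Uncloned organoids held nearly all of these transcripts at levels far above the gland. In DM, 47 of 48 genes were higher than in gland and 1, Spc25, was lower, though not with total-count scaling. Of all 13713 genes tested, 38.1% were higher and 37.4% lower. In EM, 47 of 48 were higher and none lower by edgeR's quasi-likelihood test, where 37.4% of all genes were higher and 37.4% lower. The exception was again Spc25, and the count at an unadjusted p under 0.05 was 0 for lower genes, as was DESeq2's count. The median log2 fold change over the 48 genes was 2.40 in DM, where the median of all genes tested was 0.02. In EM it was 3.00, a 7.99-fold higher level, where the median of all genes was 0.01. The calls for the 47 genes held in every fit that left out 1 library. With total-count scaling the all-gene median itself stood at 1.99 in DM and 2.06 in EM, and that of the 48 genes at 4.37 and 5.05. The DM and EM comparisons share the gland libraries.

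Among the cyclins and kinases, Cdk1 had 51.6, 61.6 and 106 CPM in DM lines 6, 7 and 8, 99.8, 91.6 and 92.1 CPM in the EM lines, and 20.2, 9.84 and 28.2 CPM in the glands of the same numbers. Plk1, the kinase of centrosome maturation, had 19.9, 27.4 and 56.4 CPM in DM, 52.9, 41.8 and 50.8 CPM in EM, against 3.37, 0.365 and 4.89 CPM in gland. Neither medium overlapped the gland for either gene, though the share of all genes with such a gap was not counted. The change of Plk1 was 3.5 ± 0.52 in DM and 3.98 ± 0.52 in EM (log2 fold change ± SE over gland, adjusted p = 8.30e-05 and 2.76e-05). Cyclin B1 (Ccnb1) changed by 2.47 ± 0.44 in DM and 2.89 ± 0.44 in EM, and cyclin A2 (Ccna2), which also serves S phase, by 2.41 ± 0.42 and 2.97 ± 0.42.

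Kif23, a cytokinesis motor of the midzone, had 28.7, 33.8 and 68.1 CPM in DM, 69.2, 57.9 and 64.3 CPM in EM, against 1.42, 2.92 and 4.11 CPM in gland. Its change was 3.89 ± 0.41 in DM (adjusted p = 4.66e-06) and 4.44 ± 0.40 in EM (adjusted p = 1.51e-06), the top of the 48 in both. Anln, which scaffolds the contractile ring, was at 3.81 ± 0.44 in DM and 4.28 ± 0.44 in EM. The outer kinetochore gene Cenpf changed by 3.65 ± 0.46 in DM and 4.38 ± 0.46 in EM. The 5 cytokinesis genes had a median of 3.22 in DM and 3.44 in EM, Ube2c with Cdc20 2.89 and 3.53, and the 6 chromosome structure genes 1.92 and 2.64. Ckap2, which binds microtubules, and the kinase Pbk were the least raised of the 47, at 1.44 ± 0.46 and 1.53 ± 0.43 in DM and at 2.04 ± 0.45 and 2.08 ± 0.43 in EM.

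Ube2c and Cdc20, which act with the anaphase-promoting complex, changed by 3.44 ± 0.36 and 2.35 ± 0.49 in DM, and by 4.0 ± 0.36 and 3.07 ± 0.49 in EM. The checkpoint kinase-like Bub1b changed by 2.30 ± 0.37 in DM and 2.76 ± 0.37 in EM. Of the chromosomal passenger complex, the kinase Aurkb changed by 2.75 ± 0.47 and 3.56 ± 0.46, and its partner Birc5 (survivin) by 1.98 ± 0.45 and 2.68 ± 0.44. These 5 genes all passed the threshold, a Benjamini-Hochberg adjusted p under 0.05. The same holds for the centromeric histone Cenpa (2.27 ± 0.38 in DM, 2.93 ± 0.38 in EM), the kinetochore gene Ndc80 (2.63 ± 0.45 and 3.18 ± 0.44), the spindle motor Kif11 (2.56 ± 0.43 and 3.15 ± 0.43) and the spindle factor Tpx2 (2.24 ± 0.45 and 2.73 ± 0.45). It also holds for the midzone bundler Prc1 (2.48 ± 0.34 and 2.90 ± 0.34), the condensin subunit Smc4 (1.85 ± 0.23 and 2.48 ± 0.23), the topoisomerase Top2a (2.40 ± 0.33 and 3.03 ± 0.34), the proliferation mark Mki67 (2.03 ± 0.43 and 2.85 ± 0.44) and the transcription factor Foxm1 (1.98 ± 0.46 and 2.89 ± 0.45). Hmgb2, a chromatin protein of dividing cells, changed by 1.70 ± 0.24 and 2.72 ± 0.24 and passed as well.

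Spc25, a subunit of the Ndc80 complex, ran the other way. It had 7.23, 8.23 and 14.7 CPM in DM lines 6, 7 and 8, 18.6, 16.3 and 16.0 CPM in EM, against 24.0, 16.6 and 29.4 CPM in the glands. All DM values lay below all gland values, while EM and gland overlapped. The change was -1.22 ± 0.27 in DM (adjusted p = 0.00147) and -0.47 ± 0.26 in EM (adjusted p = 0.122). With total-count scaling both became positive, at 0.75 in DM and 1.58 in EM. The other Ndc80 complex members in the list, Nuf2 and Ndc80, were 2.42 ± 0.43 and 2.63 ± 0.45 above gland in DM. Per length of all annotated exons merged, Spc25 was at 7.32 RPKM in gland, below only Hmgb2 at 9.07 RPKM among the 48, while Ndc80 and Nuf2 were at 0.330 and 0.597 RPKM. By mean CPM in gland, Spc25 (23.3) was below Mki67 (53.4) and Top2a (38.6) as well as Hmgb2 (27.2).

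**Figure D2:**
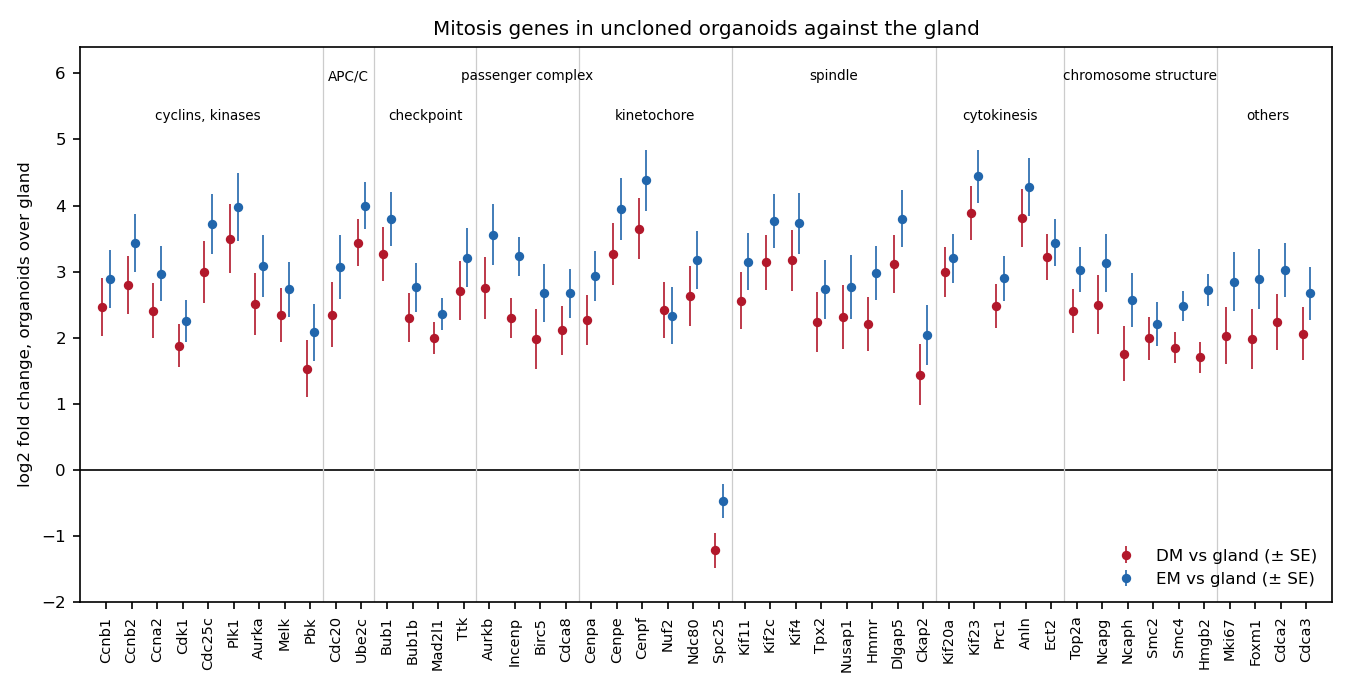
Log2 fold change ± SE of each gene in DM (red) and in EM (blue) over gland (n = 3 each), grouped by role; the last 4 genes are Mki67, Foxm1, Cdca2 and Cdca3. In both media 47 genes lie above 0, from 1.44 to 3.89 in DM and from 2.04 to 4.44 in EM, and Spc25 lies below 0 at -1.22 and -0.47, but above 0 with total-count scaling.

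The glands themselves differed in these genes. The highest over the lowest gland was 4.11-fold in the median gene and 1.55-fold to 13.4-fold across the 48. The median gene stood at 6.75 CPM in gland 6, 2.37 CPM in gland 7 and 9.39 CPM in gland 8. Gland 7 was the lowest of the 3 for 47 of the 48 genes, and gland 8 the highest for 43. Summed fibroblast markers were 793, 819 and 680 CPM in glands 6, 7 and 8, macrophage markers 521, 577 and 466 CPM, and lymphocyte and plasma cell markers 56.6, 51.4 and 38.1 CPM. In uncloned organoids the fibroblast sum reached at most 0.538 CPM in DM and 0.290 CPM in EM, and the macrophage sum was 43.4 to 57.6 CPM in DM and 22.1 to 42.4 CPM in EM. The lymphocyte and plasma cell sum ran the other way, at 489 to 832 CPM in DM and 389 to 482 CPM in EM, nearly all of it Sdc1. The part of these other cells in the gland values was not tested. Per length, the most abundant members in EM were Hmgb2 at 60.1 RPKM, cyclin B2 (Ccnb2) at 40.5, Cdc20 at 39.1, Mki67 at 38.7 and Top2a at 35.4, and the least abundant were Nuf2 at 3.14 and Ndc80 at 3.2 RPKM.

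In uncloned lines 6 and 7 these genes stood lower in DM than in EM, while line 8 stood near its EM level. With all 3 lines, 4 of 48 genes were lower in DM than in EM and none higher, where 13.2% of all genes were lower and 17.2% higher. These 4 were Hmgb2, Incenp, Smc4 and Spc25. At an unadjusted p under 0.05, 13 were lower and 0 higher, and DESeq2 called 4 lower and 0 higher. The median change was -0.58, where that of all genes was 0.00. As a share of the EM level of the same line, the median gene stood at 40.8% in line 6, 57.5% in line 7 and 99.3% in line 8. All 48 genes were below their EM level in lines 6 and 7, against 25 of 48 in line 8.

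The spread among DM lines exceeded that among EM lines, with a highest over lowest of 2.34-fold in DM for the median gene, against 1.15-fold in EM. DM line 8 was the highest DM library for all 48 genes. Of its values, 22 lay within the range of the 3 EM libraries, 16 above it and 10 below. Without the DM library of line 8, 47 of 48 genes were called lower (all except Nuf2), at a median of -1.05, where 18.4% of all genes were lower. Leaving out line 8 in both media gave 42 lower genes against 14.8% of all genes, and keeping all libraries with the line as a block gave 20 against 13.7%. The labels number tissue and cultures by line, which is what the block uses. Line 8 was singled out because its DM level had been seen to be high, so the fits without it describe lines 6 and 7 and are no independent support for a lower level in DM. Without any other of the organoid libraries the count was 1 or 2.

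Mki67 shows the pattern, with 131, 181 and 351 CPM in DM lines 6, 7 and 8 against 411, 346 and 412 CPM in EM. Only DM line 8 reached the EM range. The change was -0.82 ± 0.40 (adjusted p = 0.154), which did not pass. Top2a had 126, 173 and 317 CPM in DM and 332, 299 and 328 CPM in EM. Foxm1, at 13.3, 18.1 and 40.5 CPM in DM and 44.0, 42.1 and 49.7 CPM in EM, differed by -0.91 ± 0.36 (adjusted p = 0.0781), and did not pass either.

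Hmgb2 and Incenp were lower in DM in all 3 lines, as were other members, since 25 of the 48 were below their EM level in line 8. Hmgb2 had 67.2, 74.0 and 127 CPM in DM and 183, 177 and 182 CPM in EM, a change of -1.01 ± 0.22 (adjusted p = 0.00484). Its DM values all lay below its EM values. In DM line 8 that held for 10 of the 48 genes, and the share over all genes was not counted. Incenp, the scaffold of the passenger complex, had 34.8, 40.3 and 74.9 CPM in DM and 89.0, 95.3 and 103 CPM in EM, a change of -0.93 ± 0.25 (adjusted p = 0.0152). In line 8 these were the lowest shares of the 48, at 69.6% and 73.0% of EM. Smc4 changed by -0.63 ± 0.20 (adjusted p = 0.0371) and Spc25 by -0.75 ± 0.25 (adjusted p = 0.0450). Of these 4 calls only that of Hmgb2 held with each library left out, at an adjusted p of at most 0.0210. Incenp no longer passed without DM line 6 (adjusted p = 0.0567), DM line 7 (adjusted p = 0.0509) or EM line 8 (adjusted p = 0.0518). Smc4 and Spc25 no longer passed without any of the DM or EM libraries except DM line 8, with an adjusted p of up to 0.143 for Smc4 and 0.160 for Spc25, both without DM line 6.

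The other end was held by Nuf2, Kif20a and Ect2. Nuf2 had 14.7, 17 and 31.5 CPM in DM and 19.9, 20.1 and 19.7 CPM in EM, a change of 0.08 ± 0.33 (adjusted p = 0.883). Its DM value was 160% of EM in line 8. Kif20a, a cytokinesis motor, differed by -0.21 ± 0.29 and Ect2, the exchange factor that activates RhoA in cytokinesis, by -0.22 ± 0.26, at 128% and 129% of EM in line 8. None of these 3 genes passed.

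The remaining genes did not pass the threshold with all lines in the fit without a block. With the line as a block, 20 of the 48 were called lower. Cyclin B1 differed by -0.42 ± 0.35, Ccnb2 by -0.63 ± 0.33, Ccna2 by -0.56 ± 0.34, Cdk1 by -0.37 ± 0.28 and Cdc25c by -0.72 ± 0.30. Plk1 differed by -0.48 ± 0.36, Aurka by -0.57 ± 0.35, Melk by -0.39 ± 0.31 and Pbk by -0.55 ± 0.35. Of the anaphase and checkpoint genes, Cdc20 differed by -0.72 ± 0.39, Ube2c by -0.56 ± 0.26, Bub1 by -0.53 ± 0.28, Bub1b by -0.46 ± 0.30, Mad2l1 by -0.36 ± 0.19 and Ttk by -0.50 ± 0.32. The adjusted p of these 15 genes ran from 0.0988 for Cdc25c to 0.394 for Ccnb1. Of the passenger complex, Aurkb differed by -0.81 ± 0.34, Birc5 by -0.70 ± 0.35 and Cdca8 by -0.55 ± 0.29. At the kinetochore, Cenpa differed by -0.66 ± 0.30, the motor Cenpe by -0.69 ± 0.35, Cenpf by -0.73 ± 0.33 and Ndc80 by -0.55 ± 0.32.

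Spindle genes differed by -0.46 (Nusap1) to -0.77 (Hmmr), with Kif11 at -0.60 ± 0.34, Kif2c at -0.62 ± 0.29, Kif4 at -0.56 ± 0.32, Tpx2 at -0.49 ± 0.38, Dlgap5 at -0.68 ± 0.31 and Ckap2 at -0.60 ± 0.38. In cytokinesis, Kif23 was at -0.55 ± 0.27, Prc1 at -0.42 ± 0.28 and Anln at -0.47 ± 0.33. Of the chromosome genes, Top2a was at -0.64 ± 0.30 and the condensin subunits Ncapg, Ncaph and Smc2 at -0.63 ± 0.33, -0.81 ± 0.33 and -0.22 ± 0.28. Cdca2, which targets a phosphatase to chromosomes, and Cdca3 were at -0.78 ± 0.31 and -0.61 ± 0.32.

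**Figure D3:**
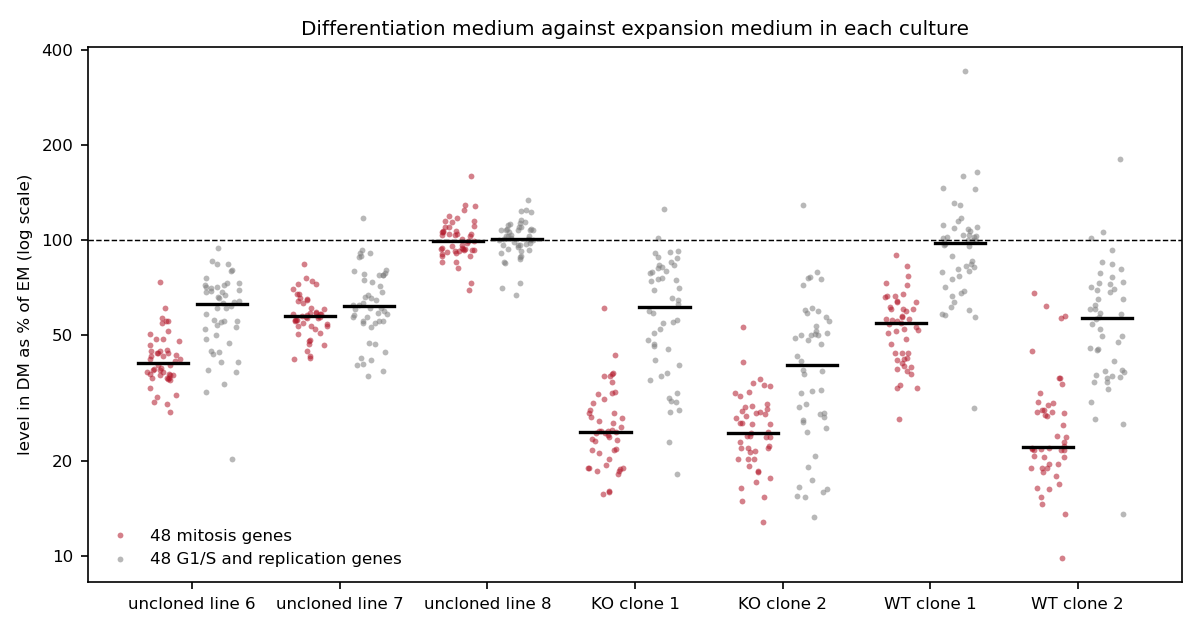
Level in DM as a percentage of the EM level of the same line or clone (log axis, dashed line at 100%), for the 48 mitosis genes (red) and 48 G1/S and replication genes (grey), with medians as bars. The red medians are 40.8%, 57.5% and 99.3% in lines 6, 7 and 8, then 24.7% and 24.6% in KO clones and 54.6% and 22.1% in WT clones.

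In the clones labelled Pax6-KO, all 48 genes stood lower in DM in both clones, and 30 were called lower and none higher, where 3.41% of 14282 genes were lower and 4.94% higher. The median change was -2.07, a 4.19-fold lower level. The median gene kept 24.7% of its EM level in clone 1 and 24.6% in clone 2. At an unadjusted p under 0.05 all 48 were lower and 0 higher, DESeq2 called 48 lower and 0 higher, and blocking on the clone gave 48 lower against 7.12% of all genes. Leaving out any of the 4 libraries, which leaves 1 library in a group that is assumed to vary like the others, brought the count to between 0 and 2, with medians between -1.78 and -2.28.

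All 6 chromosome structure genes, all 4 passenger complex genes and Mki67, Foxm1, Cdca2 and Cdca3 were among the 30. Mki67 had 18.4 and 20 CPM in DM in KO clones 1 and 2, against 97.8 and 130 CPM in EM, a change of -2.56 ± 0.51 (adjusted p = 0.0296). Aurkb, with 3.34 and 5.52 CPM in DM and 20.8 and 32.3 CPM in EM, changed most, by -2.58 ± 0.50 (adjusted p = 0.0281). The chromokinesin Kif4 followed at -2.57 ± 0.47 (adjusted p = 0.0248). The groups did not overlap for any of these 3 genes. Nor did they for Smc4, with 74.6 and 72.6 CPM in DM and 122 and 136 CPM in EM. With 2 libraries per group, and the share over all genes not counted, such a gap sets no gene apart.

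Top2a changed by -2.47 ± 0.52, Birc5 by -2.23 ± 0.45, Kif11 by -2.22 ± 0.45, Cdc20 by -2.13 ± 0.40 and Foxm1 by -2.10 ± 0.44 (adjusted p between 0.0264 and 0.0355). Bub1b, Plk1 and Cenpa changed by -2.08 ± 0.48, -1.88 ± 0.42 and -1.72 ± 0.38, and Hmgb2 by -1.60 ± 0.29, and all passed. Smc4 had the smallest change, -0.81 ± 0.15, and also passed (adjusted p = 0.0257). It kept 61.1% and 53.2% of its EM level in clones 1 and 2.

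Of the 9 cyclins and kinases only Plk1 passed in the fit without a block, although the 9 had a median of -1.88. With the clone as a block all 48 genes passed, so this split between genes depends on the fit. Ccnb1 differed by -2.06 ± 0.52 (adjusted p = 0.0590), Ccna2 by -2.17 ± 0.53 (adjusted p = 0.0517) and Cdk1 by -1.63 ± 0.42 (adjusted p = 0.0611). Ube2c (-1.88 ± 0.47), Kif23 (-2.12 ± 0.51), Tpx2 (-1.90 ± 0.46) and Ndc80 (-1.73 ± 0.63) did not pass either. Prc1 and Nuf2 had the smallest changes after Smc4, at -1.34 ± 0.34 and -1.52 ± 0.42.

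In WT clones, 12 of 48 genes were called lower in DM and none higher, where 6.13% of all genes were lower and 9.61% higher. They were Cdc20, Cdca3, Cenpa, Cenpf, Ckap2, Hmgb2, Hmmr, Kif11, Mad2l1, Mki67, Smc4 and Spc25. The median change was -1.31, where that of all genes was 0.00. All 48 genes were below their EM level in both clones, but the clones differed: the median gene kept 54.6% in WT clone 1 and 22.1% in WT clone 2. At an unadjusted p under 0.05, 37 were lower and 0 higher, and DESeq2 called 33 lower and 0 higher. With the clone as a block 43 were called lower, against 10.7% of all genes.

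Without WT clone 1 in DM, 42 were called lower at a median of -2.29, against 3.39% of all genes. Without WT clone 2 in DM, 3 were called at a median of -0.73. Without clone 1 or clone 2 in EM, 0 and 2 were called. WT clone 1 was the higher of the 2 clones in DM for all 48 genes.

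Mki67 had 29.2 and 9.0 CPM in DM in WT clones 1 and 2, against 84.1 and 53.4 CPM in EM, a change of -1.84 ± 0.50 (adjusted p = 0.0489). Ckap2 changed most, with 9.56 and 2.73 CPM in DM and 28.1 and 27.8 CPM in EM (-2.17 ± 0.49, adjusted p = 0.0281). Cdca3, a trigger of mitotic entry, changed by -2.01 ± 0.42 (adjusted p = 0.0211) and Hmmr, a spindle protein, by -1.85 ± 0.48 (adjusted p = 0.0419). DM and EM did not overlap for Mki67 or Ckap2, nor for Top2a, which did not pass, so such a gap between 2 and 2 libraries says little.

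Hmgb2 (-1.41 ± 0.29), Cdc20 (-1.62 ± 0.40), Cenpa (-1.45 ± 0.37), Kif11 (-1.75 ± 0.45) and Smc4 (-0.68 ± 0.15) passed as well. Top2a, with 53.4 and 15.4 CPM in DM and 110 and 80.8 CPM in EM, differed by -1.47 ± 0.50 and did not pass (adjusted p = 0.0942). Ccnb1 (-1.31 ± 0.52), Ccna2 (-1.62 ± 0.52), Plk1 (-1.13 ± 0.42), Ube2c (-1.39 ± 0.46) and Cdk1 (-0.91 ± 0.41) did not pass, nor did Bub1b, Aurkb, Birc5, Ndc80, Tpx2, Kif23, Prc1 or Foxm1, with changes between -0.98 (Prc1) and -1.53 (Birc5). With the clone as a block, Top2a and these other genes passed, except Ndc80 (adjusted p = 0.0538). The smallest changes were those of Melk (-0.38 ± 0.42), Ect2 (-0.41 ± 0.32) and the condensin subunit Smc2 (-0.56 ± 0.28).

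The 12 genes called in WT clones were all among the 30 called in KO clones, which is 40.0% of the KO list and 100% of the WT list. Over all genes, 290 were lower in DM in both, which is 59.5% of the 487 in KO and 33.1% of the 875 in WT clones. The 4 called in uncloned organoids were all among the KO 30 (13.3% of them), and 3 of the 4, Hmgb2, Smc4 and Spc25, were among the WT 12 (25%). Over the 12482 genes tested in both tables, 16.7% of the 1740 lower in uncloned organoids were lower in KO clones too, 61.9% of the KO list, and 31.3% were lower in WT clones too, 65.1% of the WT list. These comparisons share no library, but the KO and WT clones were fitted together and share each gene's estimate of the spread, so their lists are not independent. The overlaps were not tested, and each list of members changes with 1 library left out.

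The order of the genes in their response to DM was partly shared across cultures. Ranked by the DM share of EM within each of the 7 cultures, Mki67 had the lowest mean rank, 5.86, and stood between rank 3 and 11 in all 7. Cenpf (8.29), Hmmr (9.14) and Aurkb (12.3) came next. Ect2 (43.6), Nuf2 (43.1), Melk (42.3), Smc2 (41.9) and Cdk1 (41.0) had the highest mean ranks, which means that they kept the larger shares of their EM level. Cdk1 kept 51.7% and 67.3% in lines 6 and 7, 35.6% and 30.2% in KO clones 1 and 2, and 76.9% and 29.0% in WT clones 1 and 2. Mki67 kept 31.9% and 52.3% in the same lines, 18.8% and 15.4% in KO clones and 34.7% and 16.9% in WT clones.

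Hmgb2 was placed differently from culture to culture. It was the lowest of the 48 in lines 7 and 8, at rank 1, at rank 10 in line 6 and at rank 6 in WT clone 1. In KO clones 1 and 2 it was at rank 39 and 42, and in WT clone 2 at rank 43. Spearman's rho between cultures, over the 48 genes, ran from 0.06 (line 8 with WT clone 2) to 0.70 (line 6 with line 7). These are descriptions across genes, which are not independent, and cultures of 1 table share their scaling.

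**Figure D4:**
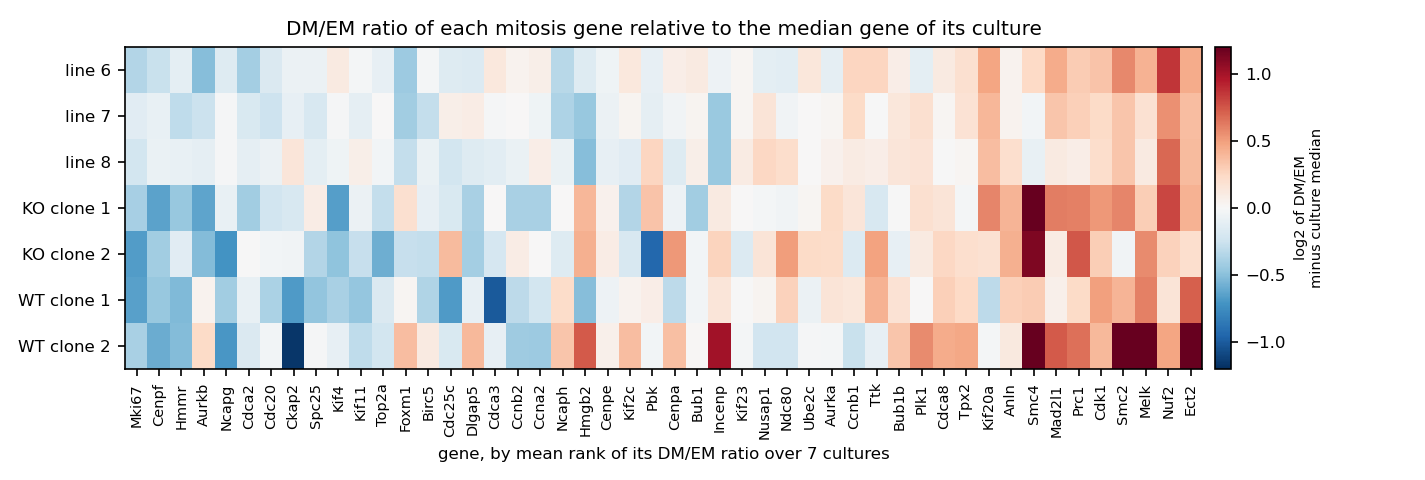
Log2 of the DM/EM ratio of each gene minus the median gene of its culture, in 7 cultures (rows), with genes ordered by mean rank. Blue genes at the left, led by Mki67, fell further than the median gene, and red genes at the right, ending in Nuf2 and Ect2, kept more of their EM level; colours are capped at -1.2 and 1.2.

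In edgeR's test after the low-count filter, no mitosis gene was called between labelled genotypes in either medium, while some other fits called members. In DM, 0 of 48 genes were called between KO and WT clones by edgeR (2.39% of all genes were higher and 3.08% lower), with 0 at an unadjusted p under 0.05 and 0 by DESeq2. With no filter on low counts, Kif11 was higher and Melk, Aurkb and Ect2 were lower, where 3.82% of 28104 genes were higher and 5.24% lower. The median was -0.25, and leaving out 1 library moved it from -0.75 (without WT clone 2) to 0.68 (without WT clone 1). Mki67 had 18.4 and 20 CPM in KO clones and 29.2 and 9.0 CPM in WT clones, a difference of 0.00 ± 0.49. The largest differences were those of Melk (-0.86 ± 0.43), Aurkb (-0.81 ± 0.49) and Pbk (-0.70 ± 0.57), all with adjusted p of at least 0.276. Cenpf (-0.03 ± 0.46) and Nusap1 (-0.05 ± 0.54) differed least after Mki67. WT clone 1 was above WT clone 2 for all 48 genes.

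In EM, 0 of 48 genes were called (5.38% of all genes were higher and 4.41% lower), 2 had an unadjusted p under 0.05, both higher (Kif11 and Smc2), and DESeq2 called 0. With no filter 13 were higher, among them Kif11, Mki67, Top2a, Plk1 and Foxm1, where 5.31% of all genes were higher, and on only the libraries compared 2 were higher, Cenpe and Cenpf, where 5.63% of all genes were. The median was 0.44, and 46 of 48 differences were positive, all but those of Cdc25c (-0.21 ± 0.51) and Prc1 (-0.12 ± 0.33). The median gene stood at 28.2 and 40.1 CPM in KO clones 1 and 2 and at 26.9 and 20.7 CPM in WT clones 1 and 2. Kif11 differed most, with 35.2 and 60.2 CPM in KO and 23.7 and 20.6 CPM in WT clones (1.11 ± 0.43, adjusted p = 0.157). Kif2c (0.92 ± 0.49) and Cenpe (0.85 ± 0.42) followed, and Smc4 (0.04 ± 0.15), Ckap2 (0.07 ± 0.46) and Cenpa (0.09 ± 0.36) differed least. KO clone 2 was above KO clone 1 for all 48 genes.

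The difference between genotypes in the response to DM was tested as an interaction. No gene was called among the 48 or among all genes (0.0% in either direction) by edgeR, 2 of the 48 had an unadjusted p under 0.05, both negative (Ect2 and Smc2), and DESeq2 called 0 of the 48. With no filter on low counts 8 of the 48 were lower, where 1.79% of all genes were. They were Melk, Aurkb, Incenp, Tpx2, Dlgap5, Ect2, Top2a and Smc2. The median interaction was -0.69, with 47 of 48 negative, and without WT clone 1 in DM it was 0.20. The largest were those of Aurkb (-1.37 ± 0.68), Ect2 (-1.32 ± 0.45) and Smc2 (-1.21 ± 0.39), with adjusted p of 0.699, 0.529 and 0.521. The smallest were those of Ckap2 (0.04 ± 0.67), Cdc25c (-0.09 ± 0.74) and Cdca3 (-0.13 ± 0.57). With the low-count filter, a drop in DM that passed for 30 genes in KO and 12 in WT clones is therefore not shown to differ between them, and for the 8 genes named this depends on the filter.

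Other cell cycle genes give the setting. Of 62 further mitosis genes, 57 were higher and 1 lower in DM than in gland. In EM, 57 were higher than in gland and 0 lower. That is 91.9% higher in each medium, where 38.1% of all genes were higher in DM and 37.4% in EM. Between DM and EM, 6 of the 62 were lower and 1 higher in uncloned organoids, 27 lower and 2 higher in KO clones and 10 lower and 2 higher in WT clones, with medians of -0.58, -1.75 and -1.13. The share called lower was 9.68% in uncloned organoids, below the 13.2% of all genes, 43.5% in KO clones against 3.41% and 16.1% in WT clones against 6.13%. The centromere gene Cenpm was the highest of the 62 and passed in each, at 1.2, 3.12 and 2.18. The lowest were Psrc1 (-1.0) in uncloned organoids, which passed, and Parpbp (-2.63) in KO clones and Depdc1a (-2.28) in WT clones, which did not.

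Of 48 genes of G1/S and replication, 3 were lower in uncloned DM than EM, 12 in KO clones and 2 in WT clones, and 1 was higher in WT clones, with medians of -0.38, -1.0 and -0.44. The shares called lower were 6.25% in uncloned organoids and 4.17% in WT clones, below the 13.2% and 6.13% of all genes, and 25% in KO clones, against 3.41% of all genes. Whether these counts differ from those of the mitosis genes was not tested. Their median share of EM was 62.6%, 61.6% and 101% in lines 6, 7 and 8, where the mitosis genes had 40.8%, 57.5% and 99.3%. In KO clones 1 and 2 it was 61.2% and 40.2% (mitosis genes 24.7% and 24.6%), and in WT clones 1 and 2 98.0% and 56.8% (mitosis genes 54.6% and 22.1%). The mitosis genes thus had the lower median in all 7 cultures, a description with no test. The lowest values were those of E2f2 in uncloned organoids (-1.10) and WT clones (-1.65) and of Exo1 in KO clones (-2.57), none of which passed. Cyclin E1 (Ccne1) was the highest of the list in all 3 settings, at 0.08 in uncloned organoids, 0.35 in KO clones and 1.38 in WT clones, and passed in WT clones.

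Of 7 inhibitors of cyclin-dependent kinases, 2 were higher and 3 lower in DM than EM in uncloned organoids. Of all genes, 17.2% were higher and 13.2% lower. In KO clones 2 were higher and 1 lower (4.94% and 3.41% of all genes), and in WT clones 2 and 2 (9.61% and 6.13%). The genes higher in DM were Cdkn1a (p21) and Cdkn2b (p15) in all 3 settings. Cdkn1a had 186, 185 and 146 CPM in DM lines 6, 7 and 8 and 110, 90.9 and 108 CPM in EM, a change of 0.74 (adjusted p = 5.39e-04). It changed by 0.74 in KO and 0.64 in WT clones (adjusted p = 0.0149 and 0.0129). Cdkn2b had 39.2, 44.8 and 23.8 CPM in DM and 20.8, 20.2 and 18.8 CPM in EM, a change of 0.85 (adjusted p = 0.0235), and changed by 1.26 in KO and 1.12 in WT clones (adjusted p = 0.00578 and 0.00450). For both genes, DM line 8 was the DM library nearest to EM. Against gland, 6 of the 7 inhibitors were higher in EM and 5 in DM, and 1 was lower in each. Of all genes, 37.4% were higher in EM and 38.1% in DM. Cdkn1a had 2.73 to 3.34 CPM in gland. Cdkn2a had 27.7 to 43.1 CPM in DM and 24.5 to 29.2 CPM in EM, against 0 to 0.355 CPM in gland.

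Cdkn2c (p18) went the other way, with changes of -0.80, -1.60 and -1.18 in uncloned organoids, KO clones and WT clones (adjusted p = 0.0130, 0.00541 and 0.00640). In uncloned organoids Cdkn1b (p27) and Cdkn1c (p57) were lower as well, at -0.42 and -1.57, as was Cdkn2d in WT clones, at -1.16. Cdkn1c was near the floor, at 0.308 to 0.461 CPM in uncloned DM and 1.13 to 1.28 CPM in EM.

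Of the D-type cyclins and their kinases (Ccnd1, Ccnd2, Ccnd3, Cdk4 and Cdk6) none passed in DM against EM in any of the 3 settings. All 5 were higher than gland in both media, where 38.1% of all genes were higher in DM and 37.4% in EM. Cyclin D2 (Ccnd2) had 562, 521 and 491 CPM in DM, 671, 517 and 521 CPM in EM, against 11, 16.2 and 13.9 CPM in gland. Of 16 genes of the DREAM complex and the Rb family, 2 were lower in DM than EM in uncloned organoids (12.5%, against 13.2% of all genes). In KO clones 3 were lower (18.8% against 3.41%) and in WT clones 1 (6.25% against 6.13%), with 0 higher in any. The repressor E2f7 was among them in uncloned organoids (-0.75, adjusted p = 0.0495) and KO clones (-2.70, adjusted p = 0.0196). Between KO and WT clones in EM, 1 of the 16 was higher and 0 lower (6.25% higher, where 5.38% of all genes were). It was the pocket protein Rbl1 (p107) (0.97, adjusted p = 0.00917), with 41.2 and 49.6 CPM in KO and 22.4 and 23.9 CPM in WT clones. In DM 0 of the 16 were called between KO and WT clones, where 2.39% of all genes were higher and 3.08% lower. Rbl1 was also lower in DM than EM in KO clones (-0.86, adjusted p = 0.0147).

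Of the epithelial, basal and myoepithelial markers, some were higher in uncloned DM than EM, with 5 of 9 epithelial and 7 of 9 basal and myoepithelial genes called higher and none lower. Of all genes, 17.2% were higher and 13.2% lower. Krt7, with 1710 to 2020 CPM in DM and 1680 to 1930 CPM in EM, Cldn7, with 151 to 158 CPM and 156 to 179 CPM, and Trp63, with 67.4 to 77.6 CPM and 70.3 to 78.5 CPM, overlapped between the media and were not called. Summed epithelial markers were 9270, 10200 and 8290 CPM in DM lines 6, 7 and 8 and 6260, 6050 and 6830 CPM in EM, and basal and myoepithelial markers 7310, 7880 and 6270 CPM in DM and 3900, 4080 and 3810 CPM in EM. For both sums DM line 8 was the DM library nearest to EM. Summed acinar markers were 7290, 6300 and 7830 CPM in DM and 10100, 10300 and 10000 CPM in EM, carried by lactoferrin (Ltf), the 1 acinar gene of 8 called lower, while 5 were called higher. Levels of several were very low, with 3 of the 8 below a mean of 1 CPM in DM and 4 in EM. Against gland, 7 of the 8 were lower in each medium and 1, Ltf, was higher. Lpo, for example, had 1.23 to 1.82 CPM in DM and 0.498 to 0.786 CPM in EM, against 3330 to 5100 CPM in gland. The smooth muscle actin Acta2 did not follow the order of the epithelial and basal sums, with 81.8, 85.8 and 186 CPM in DM and 6.19, 5.78 and 5.26 CPM in EM. The sums were not tested, and the part of these shifts in the levels of the mitosis genes was not tested.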

How the data were processed

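The authors deposited raw counts per gene as whole numbers, in a table for glands and uncloned organoids and another for clones. Per the labels' protocols, RNA was extracted with RNeasy and libraries made with a stranded TruSeq polyA kit. Per the submitters' processing notes, STAR, featureCounts and GRCm38 were used, with versions and settings not given in the sources used here. Together the files hold 38293 and 55487 gene IDs, of which 36429 and 55227 matched GENCODE M21, the source of gene models and exon lengths.

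Each table was fitted over all its libraries with edgeR 4.0.16 (R 4.3.3): TMM scaling, filterByExpr (13713 and 14282 genes kept) and the quasi-likelihood test, with Benjamini-Hochberg adjustment over all genes tested and a threshold of 0.05. Log2 fold changes ± SE come from this fit, and CPM is TMM-scaled. The depth sets the precision: 12801473 to 22500534 counts per library.

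Alternatives were DESeq2 1.42.0, its size factors, total-count scaling, no low-count filter, fits on only the libraries compared, replicate blocks and leaving out each library. The fits without line 8 in both media were added after seeing the data. The DM and EM samples of a line or clone share its label, which is where the pairing comes from. DM and EM samples of one culture deviated from their groups together only weakly in the lines, with correlations of 0.18, 0.12 and 0.09 in lines 6, 7 and 8. The correlations were 0.51 in KO clones and 0.60 in WT clones. Organoids and the gland of the same number had correlations from -0.07 to 0.08, and the line block pairs the glands as well. The fit was also run on simulated counts with known changes and the same spread in every group, with results not given here. The real groups differ in spread, so that run does not show how the fit behaves on them.

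Genes named were 20 representatives of the roles, the 3 largest and 3 smallest changes per comparison, members moving against the majority and members not called in uncloned organoids, plus genes of the CDK inhibitor, D-cyclin and DREAM lists. The members and lists were chosen with earlier results of these data known.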

Additional observations from a re-analysis of the deposited data

How the results depend on the processing

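Directions and calls against the gland held in most settings. With total-count scaling the medians were 5.05 (EM) and 4.37 (DM), no gene was lower in DM (0), and Spc25 turned to 1.58 in EM and 0.75 in DM. On only the libraries compared, 1 gene, Spc25, was lower in EM. The cause was not tested. For DM against EM in uncloned organoids, 12 genes were lower with no filter, 20 with the line as a replicate block, 42 without line 8 and 1 to 47 when each library was left out. In KO clones 48 were lower with DESeq2, 48 with no filter, 46 on only the libraries compared, 48 with the clone as a replicate block and 0 to 2 when a library was left out. In WT clones the counts were 33, 45, 0 and 43 in the same settings and 0 to 42 when a library was left out, with medians of -2.29 to -0.73. Between KO and WT clones, no filter gave 13 higher genes in EM, 1 higher and 3 lower in DM and 8 lower in the interaction, and only the libraries compared gave 2 higher in EM. Leaving out a library moved the DM median over -0.75 to 0.68, with 0.04 without KO clone 1, and the interaction median over -1.24 to 0.20. KO and WT clones share only a number, and with that number as a replicate block the medians were 0.47 in EM and -0.21 in DM with no gene called. The blocks changed no other call count by over 1.5 times. Depth limits the gland most, where gland 7 had 17 members under 10 counts. With 2 clones per genotype, 1 library decides many clone calls, and leaving 1 out also leaves a single library in its group.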
